A study of Mus musculus with 6 samples.

Results

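The genes followed on every array were 8 genes of basophils, mast cells and eosinophils: Mcpt8, Cpa3, Ms4a2, Fcer1a, Prg2, Epx, Ear1 and Il4. They were picked by gene name because their Bmi1 KO to wild-type ratio ran in opposite directions in stem cells and in progenitors, so those ratios, and their difference, are given as a description with no test. Each gene had 1 probe, so the 8 genes made up 8 of the 55681 probes that were not controls. Of the 8, 7 passed the filter on dim probes and stood among the 29135 features that entered the fits; Fcer1a did not pass. RNA came from multipotent progenitors (MPPs) and hematopoietic stem cells (HSCs) sorted by flow cytometry from C57BL6 mice aged 2 to 3 months. Each of the 6 two-colour arrays held a Bmi1 KO sample in red (Cy5) and a wild-type (WT) sample in green (Cy3), with 3 arrays of MPPs and 3 of HSCs. The 4 groups were thus KO MPPs, WT MPPs, KO HSCs and WT HSCs, 3 samples each, and the labels call the replicates biological. The KO allele, its promoter or driver, the number of mice per sample and the sorting markers are not given in the sources used here.

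Basophils, mast cells and eosinophils are granulocytes of allergic inflammation and of the defence against parasites. They store proteases, cationic proteins and amines in granules, and basophils and mast cells carry the high-affinity receptor for IgE, through which antigen triggers release of the granules. Their precursors arise in the bone marrow downstream of stem and multipotent progenitor cells. GATA factors, above all GATA2, act in basophil and mast cell development, and GATA1 and C/EBP factors in eosinophil development. Bmi1 is a component of Polycomb repressive complex 1 and is needed for the self-renewal of hematopoietic stem cells.

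Because each value rests on a single probe, the letters of 4 of the probes are shown, those of the basophil protease, of 2 eosinophil granule proteins and of the cytokine. All are in lower case, 5′ to 3′, as the array files list them, with mm9 coordinates. The Mcpt8 probe (chr14:56702300-56702674, minus strand) has 60 bases that map across 375 genomic bases, so it crosses at least 1 splice junction. The Prg2 probe lies at chr2:84822799-84822858 (plus strand), the Ear1 probe at chr14:44396709-44396768 (minus strand) and the Il4 probe at chr11:53426076-53426135 (minus strand).
Mcpt8: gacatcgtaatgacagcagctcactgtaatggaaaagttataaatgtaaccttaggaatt
Prg2: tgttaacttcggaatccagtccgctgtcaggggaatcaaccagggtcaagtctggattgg
Ear1: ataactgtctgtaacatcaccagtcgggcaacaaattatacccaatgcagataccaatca
Il4: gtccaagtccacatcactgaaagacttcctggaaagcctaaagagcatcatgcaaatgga

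The 4 other probes lie at chr11:87678288-87678347 for Epx, chr3:20115674-20115733 for Cpa3, chr19:11691701-11691760 for Ms4a2 and chr1:175151438-175151497 for Fcer1a, all on the minus strand. Exon annotation of mm9 was not used here.

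Marker genes of both populations differed in the direction of the labels. All 8 MPP marker genes had a higher mean level in MPPs than in HSCs, and none of 10 HSC marker genes did. By limma with Benjamini-Hochberg adjustment, 7 of the 8 were higher, among them Flt3 and Dntt, against 1.30% of all features. Of the 10, 5 were lower in MPPs, against 0.515%. With the replicate number as a block, 2 and 0 of these passed, and with slide row as a factor 1 and 1. The 2 Bmi1 probes did not give a steady loss: the brighter one had log2 KO/WT ratios of 0.23, -0.69 and 0.48 on MPP arrays 1, 2 and 3 and of -0.39, -2.42 and -0.50 on HSC arrays 1, 2 and 3. Which part of the gene the KO allele lacks is not given in the sources used here, so these probes check nothing, and KO below means the sample labelled Bmi1 KO. All arrays came from 1 slide and 1 scan; HSC 1, HSC 2, HSC 3 and MPP 1 lay in row 1 and MPP 2 and MPP 3 in row 2. KO was always in Cy5, so a dye effect of a probe and the genotype cannot be told apart within a ratio. The HSC 3 array stood over 2-fold above HSC 1 and HSC 2 in both channels for Mcpt8, Prg2, Epx and Ear1. The same held for 5 of 10 measured neutrophil and promyelocyte markers. The members' means, differences and calls are therefore also given without HSC 3. In bulk RNA, fewer cells of a type and less RNA per cell cannot be told apart.

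Mcpt8 is a serine protease of mouse basophils. Its processed intensity (the scanner's background-corrected and dye-normalized brightness, on a linear scale) was 7106, 8755 and 8451 in KO MPPs 1, 2 and 3, against 6777, 10808 and 16408 in WT MPPs. In HSCs it was 135, 3769.5 and 29846 in KO samples 1, 2 and 3, against 120.4, 132 and 2546 in WT samples. All MPP samples were thus bright, whereas KO HSC 2, KO HSC 3 and WT HSC 3 were bright and the other 3 HSC samples dim. The log2 KO/WT ratio, after normexp background correction with an offset of 50 and loess within each array, was 0.08, -0.39 and -1.13 in MPPs and 0.01, 3.97 and 3.42 in HSCs, and MPP 1 overlapped HSC 1. The mean ratio was -0.48 ± 0.61 in MPPs and 2.46 ± 2.15 in HSCs (SD, n = 3 each), and without HSC 3 the HSC mean was 1.99. Mcpt8 was the only member with a ratio above 2 on more than 1 HSC array.

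Cpa3, carboxypeptidase A3, is a granule protease of mast cells and is also made by basophils. Its intensity was 698, 213 and 52.6 in KO MPPs, against 231, 5.51 and 218 in WT MPPs, where WT MPP 2 was not well above background. KO HSCs gave 3.96, 255 and 240.4, against 4.81, 5.73 and 92.4 in WT HSCs, with KO HSC 1, WT HSC 1 and WT HSC 2 not well above background. Cpa3 was therefore measured on both sides of the ratio on MPP 1, MPP 3 and HSC 3 only, and it was detected in KO but not in WT on MPP 2 and HSC 2. The size of the ratio on those 2 arrays depends on the offset, being 5.27 and 5.47 from Agilent's processed signals, and on HSC 1 it has no measured sign. The MPP arrays had log2 ratios of 1.29, 1.76 and -1.26, and the HSC arrays 0.03, 1.93 and 0.88. Their means were 0.60 ± 1.63 in MPPs and 0.95 ± 0.95 in HSCs (SD, n = 3 each), so both means were positive. The MPP mean was 0.25 without MPP 1, 0.02 without MPP 2 and 1.53 without MPP 3, and the HSC mean without HSC 3 was 0.98.

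Ms4a2 and Fcer1a encode the beta and the alpha chain of the IgE receptor, the alpha chain being the one that binds IgE. Ms4a2 had intensities of 120.4, 64.7 and 23.2 in KO MPPs, against 71.8, 148 and 85.0 in WT MPPs. In KO HSCs it had 4.65, 5.79 and 116, against 5.68, 6.63 and 54.6 in WT HSCs, so among HSCs it was well above background on HSC 3 alone, in both channels. Its log2 ratios were small, at 0.41, -0.72 and -0.66 in MPPs and 0.11, -0.01 and 0.55 in HSCs, and the HSC mean, 0.22, was 0.05 without HSC 3. The Fcer1a probe was well above background in 1 of the 12 samples, WT MPP 3, at 97.4; the other 11 lay between 3.41 and 9.89. The receptor's beta chain was thus detected in all 6 MPP samples and the alpha chain in 1 of them, by probes whose brightness cannot be compared.

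Prg2 encodes major basic protein, the core of the eosinophil granule, which basophils also hold. It had intensities of 22973, 4094 and 30833 in KO MPPs, against 15027, 23622 and 68720.1 in WT MPPs. KO HSCs gave 34.8, 59.3 and 41637, against 24.1, 101 and 13035 in WT HSCs, where WT HSC 1 was not well above background. KO HSC 3 exceeded every KO MPP sample, WT HSC 3 lay just below the lowest WT MPP sample, and the other 4 HSC samples lay far below every MPP sample. Its log2 ratio stood at 0.64, -2.63 and -1.02 on the MPP arrays and at 0.13, -0.43 and 1.56 on the HSC arrays, with overlap. The mean ratio was -1.0 ± 1.64 in MPPs and 0.42 ± 1.03 in HSCs (SD, n = 3 each). Without HSC 3 the HSC mean was -0.15 and without MPP 2 the MPP mean was -0.19.

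Epx, eosinophil peroxidase, makes oxidants from halides and hydrogen peroxide. Its intensity was 4456, 726 and 7294 in KO MPPs, against 5418, 5079 and 32883 in WT MPPs. It was 150.3, 254 and 9102 in KO HSCs, against 290.0, 248 and 1789.5 in WT HSCs. WT exceeded KO on all MPP arrays, and KO exceeded WT by a wide margin on HSC 3. As log2 ratios these are -0.33, -2.82 and -2.31 for the MPP arrays and -0.77, 0.02 and 2.29 for the HSC arrays. The mean was -1.82 ± 1.31 on MPP arrays and 0.51 ± 1.59 in HSCs (SD, n = 3 each), and without HSC 3 the HSC mean was -0.38.

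Ear1 is an eosinophil-associated ribonuclease of the RNase A superfamily. It had intensities of 2765, 99.2 and 14574 in KO MPPs, against 3692, 2917 and 27426 in WT MPPs. KO HSCs gave 25.9, 24.6 and 19281, against 24.6, 13.3 and 2076 in WT HSCs, where WT HSC 1 and WT HSC 2 were not well above background. Ear1 was the only member with every MPP ratio below every HSC ratio, at -0.38, -4.28 and -0.94 in MPPs and 0.12, 0.21 and 3.15 in HSCs. Its means were -1.87 ± 2.11 in MPPs and 1.16 ± 1.72 in HSCs (SD, n = 3 each). The HSC mean without HSC 3 was 0.16, and the MPP mean without MPP 2 was -0.66.

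Il4 encodes the type 2 cytokine interleukin 4, which basophils and mast cells release. Its probe was printed 10 times on each array, and 2 spots of MPP 3 were left out as outliers. It had mean intensities of 178, 39.5 and 235 in KO MPPs, against 169, 51.2 and 63.9 in WT MPPs. KO HSCs gave 227, 252 and 912, against 257, 795 and 175 in WT HSCs. On the ratio scale, MPP arrays gave 0.06, -0.17 and 1.05, and HSC arrays gave -0.18, -1.37 and 2.03. The mean was 0.31 ± 0.65 on MPP arrays and 0.16 ± 1.73 on HSC arrays (SD, n = 3 each), and without HSC 3 the HSC mean was -0.78. The 10 spots of HSC 3 spanned log2 ratios of 1.94 to 2.19 and those of HSC 2 spanned -1.60 to -1.19, so spots of 1 array differed far less than the HSC arrays did.

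**Figure D1:**
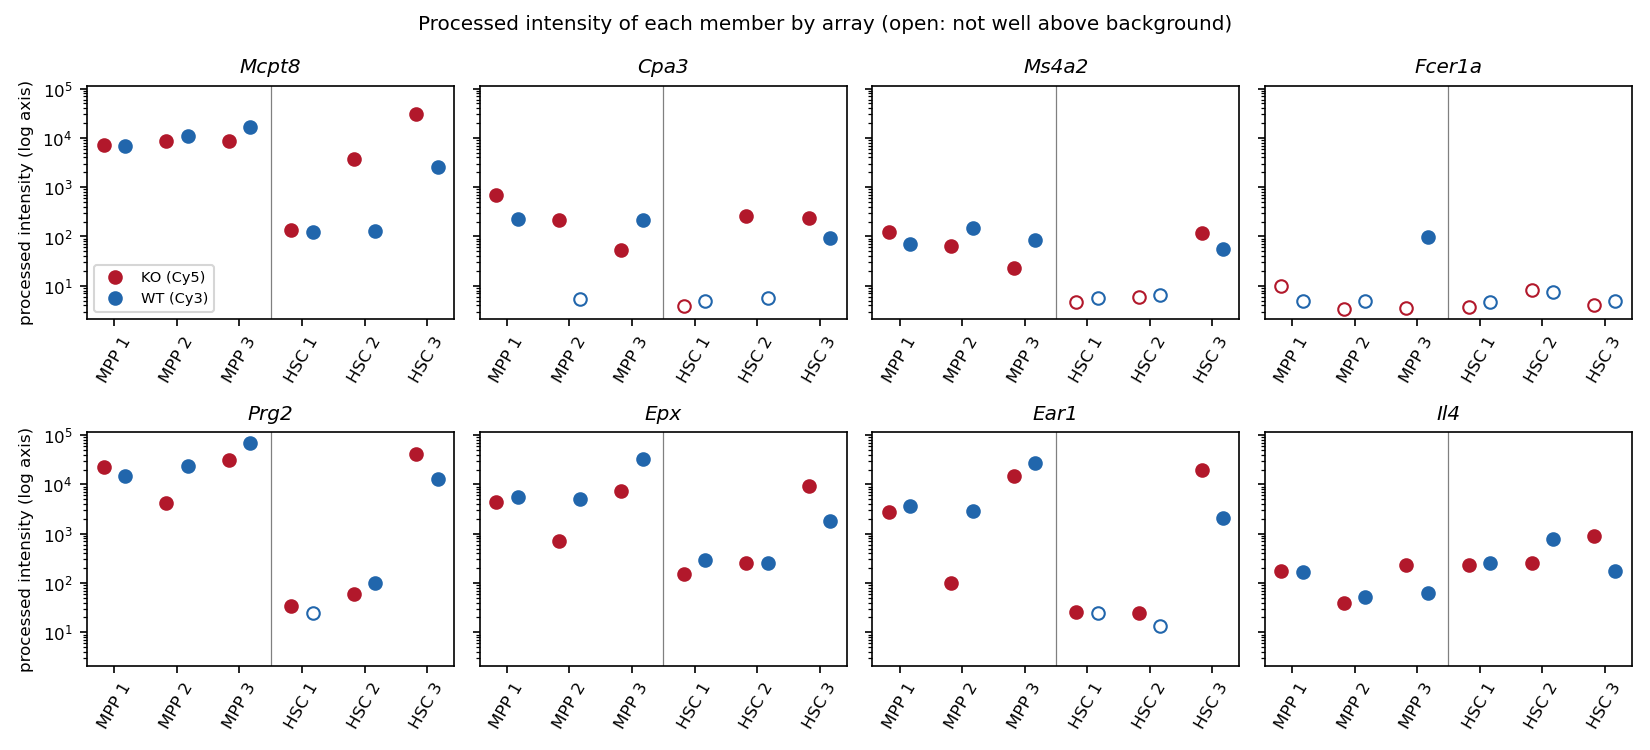
Processed intensity (log axis) of each member on the 3 MPP and 3 HSC arrays, with KO (Cy5) in red left of WT (Cy3) in blue; open circles are not well above background. Mcpt8, Prg2, Epx and Ear1 were bright on the MPP arrays and on HSC 3, and Ear1 in KO MPP 2 stood at 99.2.

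Set side by side, the members differed in which arrays carried the ratio. Of the 7 measured members, 5 had a negative mean ratio in MPPs and 7 a positive one in HSCs. Without HSC 3, 4 HSC means were positive and 3 negative (Prg2, Epx and Il4), and Ms4a2 had -0.31 when ratios were centred on the median in place of loess; over all features, 21.6% had a positive mean in HSCs with a negative mean in MPPs. The ratio was negative on all 3 MPP arrays for 2 members, Epx and Ear1 (14.2% of all features), and positive on all 3 HSC arrays for 3, Mcpt8, Ear1 and Cpa3 (13.3% of all features). For Ear1 and Cpa3 this includes HSC 1 and HSC 2, where WT was not well above background. On HSC 1 the KO side of Cpa3 was not well above background either, so its sign there is not measured. Both held for Ear1 (1.06% of all features), and its groups were the only ones without overlap (4.29% of all features). These counts restate the choice of the members. The difference of the mean ratio, MPPs minus HSCs, was -2.95 for Mcpt8, -0.35 for Cpa3, -0.53 for Ms4a2, -1.42 for Prg2, -2.33 for Epx, -3.03 for Ear1 and 0.15 for Il4. Without HSC 3 it was -2.47 for Mcpt8, -0.38 for Cpa3, -0.37 for Ms4a2, -0.85 for Prg2, -1.44 for Epx, -2.03 for Ear1 and 1.09 for Il4, with 6 of 7 negative in both cases. With MPP 1 as the lone MPP array of row 1 set against the 3 HSC arrays of that row, the differences were -2.38 for Mcpt8, 0.35 for Cpa3, 0.20 for Ms4a2, 0.22 for Prg2, -0.84 for Epx, -1.54 for Ear1 and -0.10 for Il4. Among all 29135 features no KO/WT ratio passed an adjusted p of 0.05 in limma in MPPs, in HSCs or in their difference, and 5.10%, 7.40% and 4.04% were at an unadjusted p under 0.05.

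Genes of another lineage had large KO/WT ratios in the same MPP samples, though no feature's ratio passed in limma. The median log2 KO/WT ratio of 8 measured B lineage markers was 2.01, 4.31 and 4.17 on MPP arrays 1, 2 and 3, and 0.13, -0.09 and -0.38 on HSC arrays 1, 2 and 3. All 8 had a positive mean ratio in MPPs. Ebf1, a transcription factor of early B cells, had intensities of 2808, 8251 and 15884 in KO MPPs, against 198, 60.6 and 100.1 in WT MPPs. MPP 2 and MPP 3, where these ratios were highest, were also the arrays with the most negative median ratio of the members, at -0.72 and -1.02, against 0.08 on MPP 1. The part of these B lineage genes in the members' ratios was not tested.

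**Figure D2:**
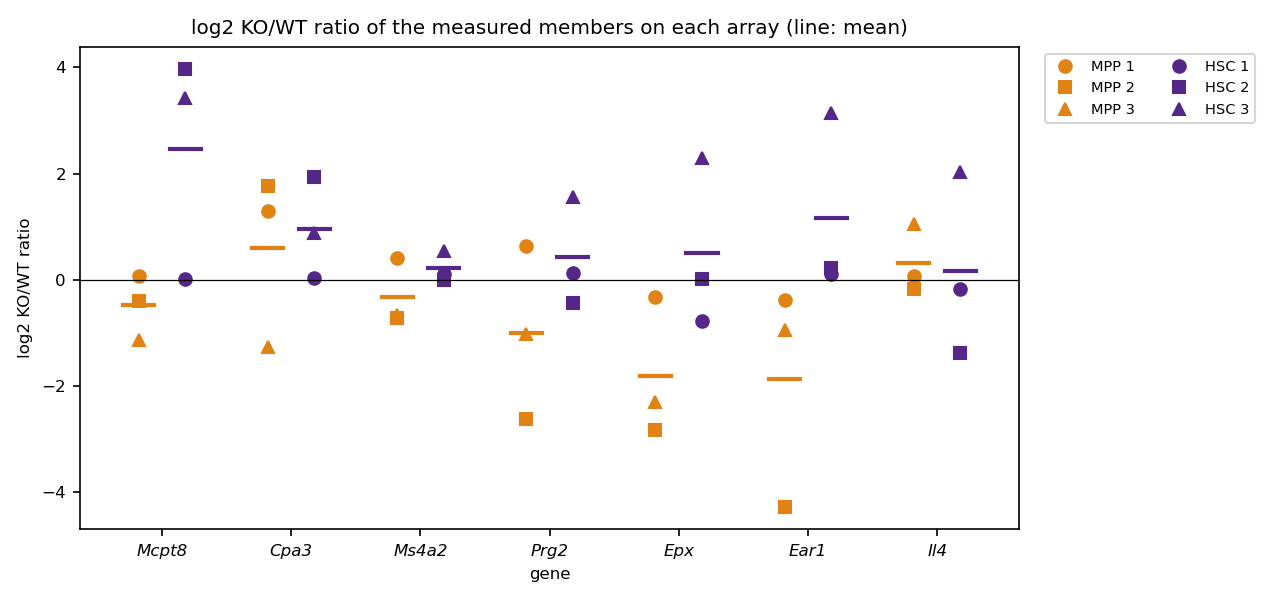
The log2 KO/WT ratio (vertical axis) of the 7 measured members on the MPP arrays (orange) and HSC arrays (purple), with a line at each mean of 3 and a marker shape for each replicate number. HSC 3 (purple triangle) is the highest HSC array for Prg2, Epx, Ear1, Ms4a2 and Il4, and HSC 2 (purple square) for Mcpt8 and Cpa3.

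The 3 eosinophil granule genes had similar ratio profiles over the arrays, and the IgE receptor gene Ms4a2 shared them. Over the 6 arrays, the Pearson correlation of the ratios was 0.94 for Prg2 with Ear1, 0.90 for Prg2 with Epx and 0.92 for Epx with Ear1, and for Ms4a2 it was 0.94 with Prg2, 0.90 with Epx and 0.81 with Ear1. Mcpt8 correlated at 0.79 with Epx, 0.64 with Ear1, 0.56 with Ms4a2, 0.54 with Cpa3 and 0.49 with Prg2. Cpa3 lay between -0.14 and 0.25 with Ms4a2 and the 3 eosinophil genes, but 3 of its 6 ratios have a side not well above background. Ms4a2 was not well above background in either channel on HSC 1 and HSC 2. The same held for WT Ear1 on HSC 1 and HSC 2 and for WT Prg2 on HSC 1. On MPP 2 the log2 ratios of Prg2, Epx and Ear1 lay between -4.28 and -2.63, and Mcpt8 had -0.39. On HSC 2 Mcpt8 had 3.97, whereas Prg2, Epx and Ear1 lay between -0.43 and 0.21, with Ear1 near background there. HSC 3 was the array where all 7 ratios were positive. In the WT channel, the levels of Mcpt8, Prg2, Epx and Ear1 correlated at 0.94 to 0.98 over the same arrays, and Il4 correlated with each of the other members between -0.82 and -0.53. These coefficients describe 6 arrays of 1 slide that also share population and array effects. The members were picked by their ratios, so the correlations of ratios among them partly restate that choice.

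The population comparison asked whether the members differed between MPPs and HSCs in the mean of both channels. The members were chosen by the ratio and not by this mean, but both come from the same channels. The choice was made with earlier results of these data known. Of the 7 measured members, 6 had a higher mean level in MPPs and Il4 a lower one. Of the 6, Cpa3 and Ms4a2 passed the filter on dim probes only through MPP samples, so their direction is no support. In limma 0 of 7 passed the test across all features; 1.30% of all features were higher and 0.515% lower in MPPs at an adjusted p under 0.05. At an unadjusted p under 0.05 stood 3 members, Prg2, Epx and Il4, against 22.2% of all features. Levels are log2 values after normexp and quantile normalization within each dye. Prg2 had a mean level of 14.25 ± 1.12 in MPPs and 9.38 ± 4.34 in HSCs (SD, n = 3 each), a limma difference of 4.87 (SE 2.02, adjusted p 0.223). Mcpt8 had 12.91 ± 0.33 in MPPs and 9.98 ± 2.73 in HSCs, a difference of 2.93 (SE 1.25, limma adjusted p 0.231). The spread lay in the HSCs for these genes. Epx differed by 2.91 (SE 1.16, limma adjusted p 0.210) and Ear1 by 3.20 (SE 1.88, limma adjusted p 0.356). The differences of Cpa3 and Ms4a2, both near background in HSCs, were 0.81 and 0.75, and 2.08 and 2.48 from Agilent's processed signals (limma adjusted p 0.410 and 0.260), and Il4 was 1.13 lower on the log2 scale in MPPs (estimate -1.13, SE 0.33, limma adjusted p 0.139). The median difference was 2.91 over the 7 members and -0.08 over all features.

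HSC 3 decided 2 of these calls. Without it, Prg2 was 7.37 higher in MPPs on the log2 scale (SE 0.66, limma adjusted p 0.0131) and Mcpt8 4.36 higher (SE 0.67, limma adjusted p 0.0428), and both passed. Epx (4.15, limma adjusted p 0.0601), Ear1 (5.20, adjusted p 0.0880) and Ms4a2 (1.16, adjusted p 0.0809) did not pass, nor did Cpa3 (1.17, adjusted p 0.250) and Il4 (-1.02, adjusted p 0.167). HSC 3 was set apart because Mcpt8, Prg2, Epx and Ear1 were high on it in both channels. Their larger differences without it, and the 2 passes, follow from that choice and are no support. With the replicate number as a block, 62 features passed, against 529 without it, and none of the 7 members passed (limma adjusted p between 0.115 and 0.494).

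**Figure D3:**
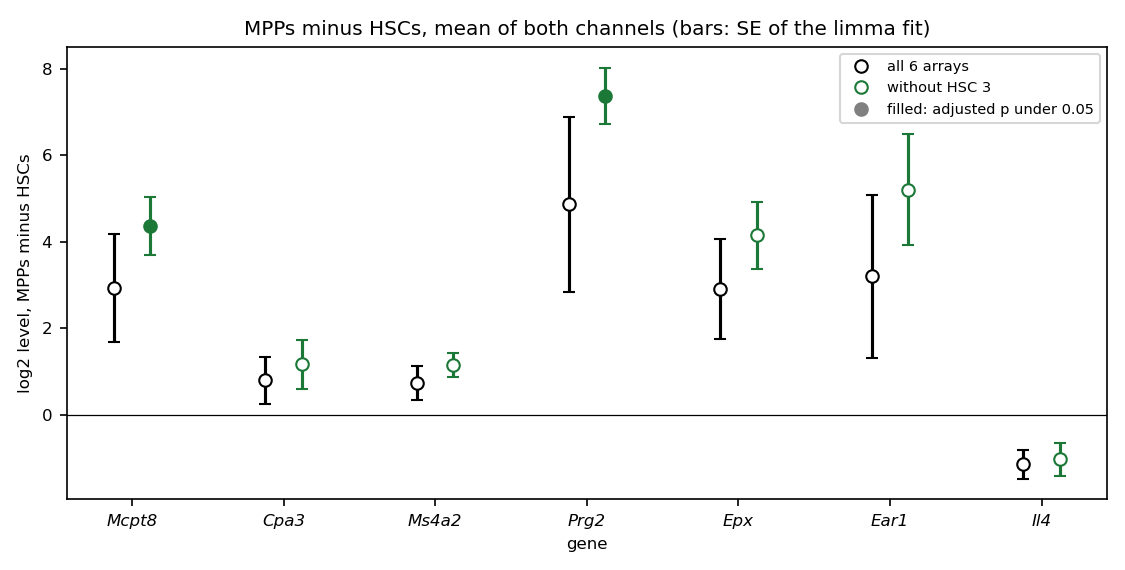
The log2 difference in mean channel level, MPPs minus HSCs (vertical axis), for the 7 measured members, with all 6 arrays (black) and without HSC 3 (green); bars are the SE of the limma fit and filled circles have an adjusted p under 0.05. Mcpt8 (4.36) and Prg2 (7.37) passed when HSC 3 was left out, an array set apart because these genes were high on it.

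Within 1 dye, which removes the genotype from the comparison but forms part of the values the members were chosen on, WT MPPs lay above WT HSCs by 4.28 for Mcpt8, 5.30 for Prg2, 3.96 for Epx and 4.36 for Ear1 on the log2 scale. For these 4 genes all 3 WT MPP levels lay above all 3 WT HSC levels, as for 8.57% of all features. In the KO channel the differences were 1.58 for Mcpt8, 4.44 for Prg2, 1.87 for Epx and 2.04 for Ear1, and every member overlapped between KO MPPs and KO HSCs (8.80% of all features had all KO MPPs above all KO HSCs). KO HSC 3 had the highest KO level of all for Mcpt8, at 15.32, for Prg2, at 16.06, for Epx, at 13.73, and for Ear1, at 14.82. Without HSC 3, the differences of Mcpt8, Prg2, Epx and Ear1 were 3.29, 7.38, 3.55 and 4.67 in the KO channel and 5.43, 7.36, 4.74 and 5.73 in the WT channel. The order of the KO channel was thus set by 1 HSC sample at the top and, for Prg2, Epx and Ear1, by KO MPP 2 at the lower end of the MPPs.

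HSC 3 exceeded the higher of HSC 1 and HSC 2 by 8.57 in KO and 5.82 in WT for Prg2 on the log2 scale of levels. The same gap was 7.79 in KO and 4.09 in WT for Ear1, 4.65 in KO and 2.32 in WT for Epx, and 2.98 in KO and 3.35 in WT for Mcpt8. These 4 of 7 members stood over 2-fold above the other HSC arrays in both channels, as did 0.944% of all features, and 3 of 7 stood over 8-fold above them in WT, as did 0.580%; both thresholds were set after seeing the data. For these genes both samples of the array, KO in Cy5 and WT in Cy3, showed the gap. They shared the array, and the cause of the gap was not tested. Il4 did not share it in both channels, with 1.50 in KO and -1.74 in WT. The gap was -0.16 in KO and 0.95 in WT for Cpa3, and 1.86 in KO and 0.56 in WT for Ms4a2. Both of these probes were dim, so the size of their gaps depends on the offset. Among HSCs, WT Cpa3 and both channels of Ms4a2 were well above background on HSC 3 alone.

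Markers of neutrophils and their precursors were high on the same array. Of 10 measured neutrophil and promyelocyte markers, 5 stood over 8-fold above HSC 1 and HSC 2 in the WT channel of HSC 3: Mpo, Elane, S100a8, S100a9 and Ngp. The median level of the list was 10.16, 10.56 and 12.34 in KO MPPs and 7.66, 7.82 and 11.82 in WT MPPs, and 8.69, 8.89 and 11.91 in KO HSCs and 6.77, 7.03 and 10.66 in WT HSCs. Both MPP 3 and HSC 3 were thus high within each dye; the dyes were scaled separately, so KO and WT levels are not compared here. On HSC 3 the median log2 KO/WT ratio of the 10 markers was -0.03, and 7 of the 10 had a positive mean ratio in HSCs. S100a8, an alarmin of neutrophils and monocytes, had intensities of 4761 in KO and 14787 in WT on HSC 3, and this 1 gene does not stand for the list. Of the other cell types looked at, 1 of 8 monocyte markers and 1 of 9 erythroid markers passed that fold, and none of 12 T and NK cell, 8 B lineage or 7 megakaryocyte markers did. The part of neutrophil RNA, or of other mature cells, in the members' values was not tested.

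**Figure D4:**
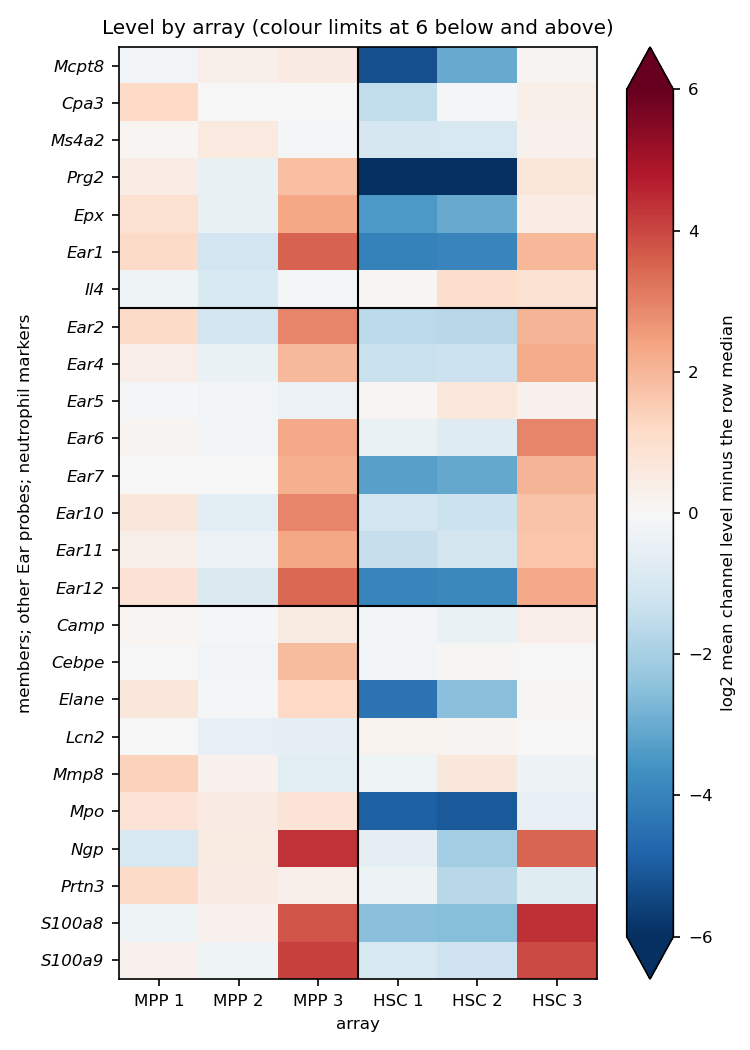
Mean channel level on each array minus the row's median (log2, colour limits at 6), for the 7 measured members, 8 other Ear probes and 10 neutrophil markers. MPP 3 and HSC 3 are high for the Ear probes other than Ear5 and for S100a8, S100a9 and Ngp, whereas HSC 1 and HSC 2 are low for Prg2, Ear1 and Mpo.

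Ear1 belongs to a family of near-identical genes, so its probe may also read relatives, and the Ear2 probe lists an Ear1 transcript among its own. The 8 other Ear probes were therefore set beside it, a choice made after seeing the data. Of the 8, 5 had a WT intensity on HSC 3 over 10-fold above HSC 1 and HSC 2, and the share of all features past this fold was not computed. The ratio was negative on MPP 3 for 7 of the 8 and on MPP 2 for 4, and positive on HSC 3 for 7. The median ratio of all features was 0.01 on MPP 3 and MPP 2 and -0.02 on HSC 3. Ear2, Ear4, Ear5 and Ear6, with positive ratios on MPP 2, were dim there, with intensities of at most 78.5. Ear12 followed Ear1 closely, with log2 ratios of -0.54, -1.96 and -1.29 in MPPs and 0.05, 0.27 and 2.47 in HSCs. Ear5 did not, with an intensity of 25.1 in KO and 45.3 in WT on HSC 3. Prg3, the second major basic protein gene, had intensities of 1735, 1883 and 4215 in KO MPPs, against 1806, 4679 and 6754 in WT MPPs. It had 1224, 1491 and 2726 in KO HSCs, against 1102, 1865 and 1391 in WT HSCs, without the gap that Prg2 showed in WT HSC 3.

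A wider list of 78 genes of these lineages, of which 74 were on the array and 66 were measured, held 3 genes higher and 2 lower in MPPs in limma, against 1.30% and 0.515% of all features; 25 of the 66 had an unadjusted p under 0.05, against 22.2% of all features. Among granule proteins, Serpinb1a, an inhibitor of neutrophil serine proteases, was 2.79 higher on the log2 scale (SE 0.24, limma adjusted p 0.00521), while the mast cell chymases Cma1 (2.69, adjusted p 0.131) and Mcpt2 (1.01, adjusted p 0.193) and the protease Ctsg (2.46, adjusted p 0.154) did not pass. Among mediators, Hpgds, which makes prostaglandin D, was higher (1.68, SE 0.27, limma adjusted p 0.0395) and Slc18a2, the vesicular amine transporter, lower (-1.92, SE 0.27, limma adjusted p 0.0286). Hdc, which makes histamine, stood at 1.96 (adjusted p 0.272) and the cyclooxygenase Ptgs1 at -1.31 (adjusted p 0.281). Among transcription factors, Cebpa was 3.12 higher (SE 0.23, limma adjusted p 0.00305) and Gata2 lower (-1.65, SE 0.22, limma adjusted p 0.0239), with Zfpm1, a GATA cofactor, at -1.47 (adjusted p 0.0533) and Irf8 at 2.04 (adjusted p 0.0750). The 2 factors that passed moved in opposite directions. The KO/WT ratios of the list were mixed, and 38 of the 66 had a lower mean ratio in MPPs than in HSCs. Cma1 and Mcpt2 ran against most members, with mean log2 ratios of 2.46 and 1.39 in MPPs and -0.33 and -0.20 in HSCs.

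None of 17 receptors and surface genes, 5 cytokines and chemokines or 8 receptor signalling genes passed in limma, and 5, 3 and 4 of them had an unadjusted p under 0.05, against 22.2% of all features. Their smallest p-values were those of the interleukin 3 and 5 receptor chains Il3ra (-0.91, limma adjusted p 0.113) and Il5ra (-0.77, adjusted p 0.119), of Crlf2 (-1.67, adjusted p 0.125) and of Cd69 (3.31, adjusted p 0.143). Among cytokines they were those of Ccl3 (4.59, limma adjusted p 0.0682), Tnf (1.82, adjusted p 0.130), Ccl4 (3.03, adjusted p 0.141) and Il3 (-0.48, adjusted p 0.250), and among adaptors and kinases Lat2 (2.34, limma adjusted p 0.101), Lyn (-1.13, adjusted p 0.155), Grap2 (0.98, adjusted p 0.157) and Fyn (1.1, adjusted p 0.191). Without HSC 3, 6 of the 66 were higher, with Ctsg, Cd69, Ccl3 and Ccl4 joining Serpinb1a and Cebpa, and 1, Gata2, was lower. In that fit 740 of all 29135 features passed in either direction, against 529 with all arrays. Ctsg was itself high on HSC 3, by 1.79 in WT and 3.07 in KO above the higher of HSC 1 and HSC 2. HSC 3 was set apart after seeing the data, so the added calls are no support. Serpinb1a and Cebpa passed with any 1 array left out, whereas Hpgds and Slc18a2 passed only without HSC 2 and Gata2 only without HSC 1 or HSC 3, their limma adjusted p missing the threshold without each other array and reaching 0.151. Hpgds (limma adjusted p 0.0564) and Slc18a2 (0.0514) did not pass with Agilent's processed signals, and Slc18a2 (0.0506) and Gata2 (0.109) did not with median scaling. With slide row as a factor none of the 5 passed, at limma adjusted p of 0.0646 to 0.469. The fits with the replicate block called none of the 66, and the 5 genes had limma adjusted p between 0.0575 and 0.0999 with unchanged estimates.

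In the promoter table of RefSeq (GRCm38.p6; 250 bases before to 50 after each gene's start), 7 of the 8 members matched, with 8 windows because Il4 has 2 starts. The GATA words AGATAA and TGATAA, searched on both strands, stood in windows of Ms4a2 (3 matches), Cpa3, Fcer1a and 1 window of Il4 (1 match each), and not in those of Mcpt8, Epx and Ear1. The Ms4a2 stretch printed here holds 1 of its 3 matches. Of all 32851 windows, 18.6% held one of them. The windows of the mast cell protease and of the IgE receptor beta chain are shown as far as they lie upstream of the annotated gene, written along the gene's strand, with matches in capitals. A match is a run of letters, not a measured binding site. The Cpa3 stretch is chr3:20242210-20242431 and the Ms4a2 stretch chr19:11623791-11623969, both on the minus strand of GRCm38.p6.
Cpa3: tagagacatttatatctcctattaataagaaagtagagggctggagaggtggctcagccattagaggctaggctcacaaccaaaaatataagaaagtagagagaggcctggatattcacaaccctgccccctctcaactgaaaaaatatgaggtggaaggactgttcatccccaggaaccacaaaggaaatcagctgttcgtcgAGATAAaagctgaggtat
Ms4a2: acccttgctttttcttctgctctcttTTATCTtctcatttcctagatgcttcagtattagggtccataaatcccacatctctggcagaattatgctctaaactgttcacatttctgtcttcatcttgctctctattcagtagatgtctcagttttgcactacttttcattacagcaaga

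The genes whose ratio profile over the 6 arrays was most like the members' mean profile were Tank, Dhrs13, Gpr65, Galc, Dlg4, Rnase2a, Dcaf5 and Top2b, after leaving out 4 features at these ranks that have no gene name or only a clone or predicted name, with Pearson r of 0.98 to 0.99, among 8195 features whose ratio had an SD of at least 1. Of these, 235 had an r above 0.9 over 6 arrays. Rnase2a is the current symbol of the Ear11 probe. Tank had log2 ratios of 0.05, -1.30 and -0.86 in MPPs and 0.09, 0.69 and 2.11 in HSCs, and the mean profile of the members ran 0.26, -1.32 and -0.90 over the MPP arrays and -0.08, 0.62 and 1.98 over the HSC arrays.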

How the data were processed

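RNA of 6 two-colour Agilent arrays was used. Per the file headers, the deposited array files hold spot intensity values written by Feature Extraction 10.7.3.1, whereas 8.5.1.1 is the version in the submitters' notes. The deposited series table equals the log10 ratio column of those files, and was used only for this check. Here, mean and background intensities were corrected with normexp (offset 50) and turned to log2 in limma 3.58.1 (R 4.3.3), with loess within arrays for ratios and quantile normalization within each dye for levels. Control spots and outlier spots were left out. A probe was kept if well above background on all 3 arrays of any of the 4 channel groups; the brightest probe stood for a gene, giving 29135 features. Spots well above background made up 78.8% to 83.9% in KO and 72.5% to 82.2% in WT samples, and the number of arrays limits the precision. Populations were compared with lmFit and eBayes over all features with Benjamini-Hochberg adjustment. The smallest exact permutation p of 3 against 3 arrays is 0.10. Same-numbered MPP and HSC arrays deviated together in levels (r 0.26, 0.11 and 0.14) but not in ratios (r -0.07, 0.01 and 0.02), so levels are also given with the replicate block; the labels name no shared litter or day. Named genes were all members, up to 4 lineage genes per role (those passing first, then the smallest p) and the 8 genes most like the members. Members, lists and tests were chosen with earlier results of these data known. Gene symbols were updated through RefSeq for 27235 of 55681 probes (48.9%). The fits were tested on simulated data. The limma p-values set each difference against the spread between arrays, pooled over both populations and moderated over all features.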

Additional observations from a re-analysis of the deposited data

Results flagged for a closer look

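Ear1 differed between the populations in direction: its log2 KO/WT ratio was negative on all 3 MPP arrays and positive on all 3 HSC arrays, and the difference of the means, MPPs minus HSCs, was -3.03. The difference was not tested, since it was used to choose the gene; 1.06% of all features had this pattern of signs. The 2 ratios of HSC 1 and HSC 2 were 0.12 and 0.21, from intensities near background.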

How the results depend on the processing

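No feature passed for the difference in KO/WT between MPPs and HSCs under any alternative run. Nor did any pass for KO/WT in MPPs or in HSCs, which were not tested with the replicate block, slide row or row 1 alone. The 529 features called between MPPs and HSCs were 329 with Agilent's processed signals, 62 with the replicate block, 62 with slide row as a factor, 55 in row 1 alone, where MPP 1 is assumed to vary like the HSC arrays, and 146 to 740 with 1 array left out. In the WT channel 122 were called, 53 without the filter on dim probes and 0 to 123 with 1 array left out; in the KO channel 150, 99 without the filter and 58 to 158 with 1 array left out. Fewer arrays entered the row 1 and leave-one-out fits; the cause of the other changes was not tested. For the 7 measured members, no population difference changed sign, and the calls changed only without HSC 3 (Mcpt8 and Prg2); the replicate block changed no member's call. The sign of the members' ratios or of their difference changed in 3 of 21 values with median centring, 4 of 7 differences with slide row, 4 of 7 in row 1 alone, 3 of 21 without MPP 3, and 1, 2 and 3 of 21 without HSC 1, HSC 2 and HSC 3. Where a probe lay at or near background in one channel or both (Cpa3 on MPP 2, HSC 1 and HSC 2, Prg2 on HSC 1, Ms4a2 and Ear1 on HSC 1 and HSC 2, and Fcer1a), the size of the ratio depends on the offset. The dim Ms4a2 probe also had ratios of larger size from Agilent's processed signals on HSC 3 and the MPP arrays.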
